A study of Mus musculus with 15 samples.

Results

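The genes *Clu*, *Cst3*, *Serpina3n*, *Ptgds*, *Apod* and *Rnase1* encode secreted proteins of 4 kinds, a chaperone, a pair of protease inhibitors, a pair of lipocalins and a ribonuclease. The 6 genes were chosen from earlier results on these same samples, in which they were higher in the internal than in the external region and, except for *Rnase1*, higher in 3D than in 2D. The differences given here for them are therefore a description and no test. They were matched by symbol to 2 deposited data sets. The culture data set listed 5 of them among its 11677 genes (*Rnase1* was not listed there), and the region data set listed 6 among its 11299 genes. The whole series lists 11935 gene symbols.

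All 15 samples came from 21EM15, an immortalized cell line from mouse lens epithelium, labelled WT, so that every group stands for 1 cell line and not for lens tissue. The 4 samples of the 2D group were dishes at 80% confluence. The 4 samples of the 3D group were pools of 60 spheroids each, grown for 10 days in wells coated to prevent attachment. The 4 samples of the Internal group and the 3 samples of the External group were regions cut by laser capture microdissection from sections of frozen spheroids, 120 spheroids per replicate. The 2D and 3D groups differed in culture time and density as well as in geometry, which cannot be told apart. The External samples are those that the study kept after a principal component analysis, and a further one was not analysed here. Each 2D or 3D replicate was a dish or a pool of spheroids of its own. Whether Internal and External samples of the same number were cut from the same pool is not stated, and they were fitted as unpaired. It is not stated whether replicates were set up on separate occasions, so that p-values measure only the spread between these samples.

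Clusterin, the product of *Clu*, is an extracellular chaperone that binds partly unfolded proteins and hands them to endocytic receptors. Cystatin C, the product of *Cst3*, blocks cysteine cathepsins, and *Serpina3n* encodes an antichymotrypsin-type serpin that traps serine proteases in a covalent complex. Lipocalins carry small lipophilic molecules in a barrel-shaped pocket. Apolipoprotein D (*Apod*) is a lipocalin that binds arachidonic acid and progesterone, and *Ptgds* encodes a lipocalin that is also the enzyme making prostaglandin D2. *Rnase1* encodes pancreatic-type ribonuclease, which cleaves extracellular RNA. In the eye several of these proteins are known from the aqueous and vitreous humour that bathe the lens, and clusterin is also made by lens epithelial cells.

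The stretches before the transcription starts of *Serpina3n*, *Rnase1* and *Apod* are shown to give the letters of the start regions of genes with few reads in 2D or External. They are the genes for which bases outside annotated exons reach to within 18 bases of the RefSeq start. RefSeq promoter windows of 300 bases (GRCm38.p6, 250 bases before the start and 50 from it on) were found for *Ptgds*, *Cst3*, *Serpina3n*, *Rnase1* and *Apod*. Each line gives, 5′ to 3′ on the strand of the gene, 100 bases that lie before any exon of GENCODE vM21, from chr12:104406608-104406707 (plus strand), chr14:51146786-51146885 (minus strand) and chr16:31314809-31314908 (minus strand). Capitals mark matches to the motifs searched.
Serpina3n: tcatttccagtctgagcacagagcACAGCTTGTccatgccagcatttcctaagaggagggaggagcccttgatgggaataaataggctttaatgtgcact
Rnase1: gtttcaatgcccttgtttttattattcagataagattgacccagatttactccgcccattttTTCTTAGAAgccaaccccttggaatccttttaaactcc
Apod: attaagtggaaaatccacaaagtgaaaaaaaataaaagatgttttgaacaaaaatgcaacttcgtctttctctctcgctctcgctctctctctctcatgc

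Both strands of the 5 windows were searched for 6 short motifs, and positions are counted from the RefSeq start. The core of the glucocorticoid receptor motif (ACANNNTGT) matched once, in *Serpina3n* at -76, and 6.85% of all 32851 promoter windows held it. The STAT motif (TTCNNNGAA) matched once, in *Rnase1* at -56, and 8.30% of all windows held it. The AP-1 motif (TGANTCA) matched once, in *Ptgds* at -35, within a stretch that GENCODE vM21 annotates as exon, and 7.81% of all windows held it. A partial Maf recognition element (TGCTGA) matched in *Cst3* at -155 and in *Rnase1* at -184, and 19.5% of all windows held it. The heat shock element core (GAANNTTC, in 7.86% of all windows) and the E-box CACGTG (in 7.15%) had 0 matches in the 5 windows. No motif was common to more than 2 of the 5 windows, no matches overlapped, and a match is a description of the letters and not a binding site. The GC content of the windows ranged from 37.3% in *Apod* to 60.3% in *Cst3*, with a median of 52.7% over all windows.

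Between 7305053 and 9362587 reads were counted over the listed genes in the 2D samples, 7727642 to 8364276 in 3D, 4256391 to 11702504 in Internal and 4044230 to 6086089 in External. Levels are given in CPM, the usual read count scaled to library size, after the authors' scaling between samples, with 3 reads equal to 0.248 CPM in the deepest and 0.802 CPM in the shallowest of the 15 samples. The libraries capture the 3′ end of transcripts, so that CPM values do not grow with transcript length. Whether capture or mapping differs between genes was not checked beyond shared 3′ sequence, so that the order of genes by level is approximate. The 2 data sets were normalized separately and their RNA was extracted with different kits, so that levels were compared within each of them. Of 9 markers of lens epithelium, 3 (*Pax6*, *Six3* and *Cryab*) were listed in both data sets, whereas *Foxe3*, *Cryaa*, *Cdh1*, *Pitx3*, *Sox1* and *Lim2* were not listed. The list is no clean measure of the epithelium, since *Lim2* is a gene of lens fibers and *Cryab* is expressed in both. The summed level of the 3 was 1327 to 1592 CPM in 3D, 781 to 1109 CPM in 2D, 959 to 1256 CPM in Internal and 719 to 848 CPM in External.

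All 5 listed genes were higher in each of the 4 3D samples than in each of the 4 2D samples. For *Clu*, *Cst3* and *Apod*, which had at least 93 pooled reads in 2D, the pooled CPM was 14.7-fold, 8.28-fold and 45.2-fold higher in 3D. Of these 5 genes, 4 were past both thresholds, an adjusted p-value under 0.01 from limma and a log2 difference over 1. *Ptgds*, with at most 24 reads in a sample, was not. Among all 11677 genes, 2.92% were past both thresholds as higher and 1.51% as lower in 3D, and 12.0% were higher in every 3D sample than in every 2D sample. In the spheroids, all 6 genes were higher in each of the 4 Internal samples than in each of the 3 External samples and past both thresholds. Without a variance trend in the fit, *Ptgds* and *Apod* were not past them in the regions. Among all 11299 genes, 3.27% were past them as higher and 4.35% as lower in the internal region, and 13.5% were higher in every Internal sample than in every External sample. These shares are background only, since the same comparisons chose the genes. In bulk samples, more cells expressing a gene and more RNA of it per cell cannot be told apart.

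**Figure D1:**
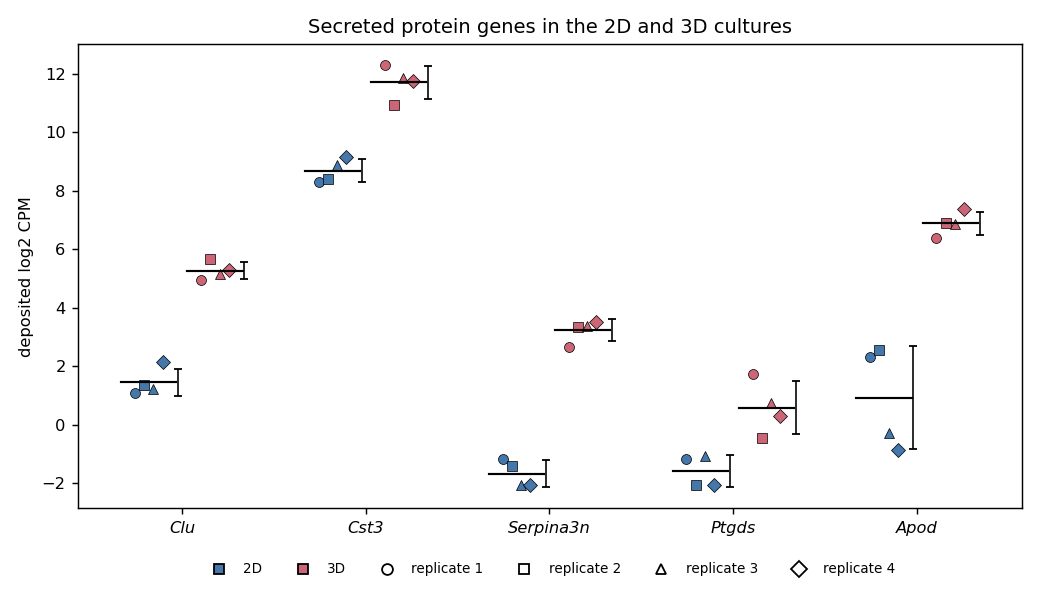
Deposited log2 CPM of *Clu*, *Cst3*, *Serpina3n*, *Ptgds* and *Apod* in the 4 2D (blue) and 4 3D (red) samples. Symbols give the replicate, horizontal lines the group mean and bars 1 SD. The groups do not overlap for any of the 5 genes, and *Apod* is the gene most spread within 2D.

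*Clu* (ENSMUSG00000022037, GRCm38 chromosome 14, 65968483 to 65981547, plus strand) encodes the chaperone of the group. It had 1.89, 2.32, 2.11 and 4.16 CPM in the 2D replicates 1 to 4, or 17 to 40 reads, and 31.0, 50.7, 35.6 and 38.7 CPM in the 3D replicates 1 to 4. Even the lowest 3D sample was thus 7.45-fold above the highest 2D sample, the 2D replicate 4. The means were 39.0 ± 8.44 CPM in 3D and 2.62 ± 1.04 CPM in 2D (SD, n = 4 each), and the log2 difference was 3.82 (standard error 0.28). Within the spheroids, *Clu* had 132, 227, 180 and 212 CPM in the Internal replicates 1 to 4 and 49.6, 39.8 and 38.2 CPM in the External replicates 1 to 3. The External samples were close to each other, and the lowest Internal sample, the replicate 1, was 2.67-fold above the highest of them. The log2 difference was 2.11 (standard error 0.19), from means of 188 ± 41.9 CPM (SD, n = 4) and 42.5 ± 6.14 CPM (SD, n = 3).

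*Cst3* (ENSMUSG00000027447, GRCm38 chromosome 2, 148871722 to 148875692, minus strand), the cysteine protease inhibitor, had by far the highest levels of the group. It had 317, 336, 470 and 562 CPM in the 2D replicates 1 to 4 and 5015, 1970, 3733 and 3428 CPM in the 3D replicates 1 to 4. The 3D replicate 2 was the lowest 3D sample, with 15958 reads, and lay 3.51-fold above the highest 2D sample. The log2 difference was 3.03 (standard error 0.28), and by mean log2 level *Cst3* ranked 330 of 11677 genes in 2D and 27 in 3D. In the regions, the Internal replicates 1 to 4 had 71540, 103347, 44735 and 132547 *Cst3* reads, and the External replicates 1 to 3 had 12637, 7090 and 9319 reads. These reads made up between 1.05% and 1.24% of all reads of an Internal sample, against 0.147% to 0.230% of an External sample. *Cst3* ranked 4 of 11299 genes in the internal region and 52 in the external one. The means were 10966 ± 709.9 CPM (SD, n = 4) and 2039 ± 476 CPM (SD, n = 3), a log2 difference of 2.45 (standard error 0.16). Of all genes of the group it varied least among the Internal samples, with the highest sample 1.16-fold above the lowest.

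*Serpina3n* (ENSMUSG00000021091, GRCm38 chromosome 12, 104406729 to 104414329, plus strand), the serine protease inhibitor whose promoter stretch is shown above, was nearly unread in 2D. The 2D replicates 1 to 4 had 2, 1, 0 and 0 reads, and the 3D replicates 1 to 4 had 48, 80, 79 and 91 reads. Pooled over the samples of each group, 298 reads in 3D stood against 3 reads in 2D, a ratio of 110 between the pooled CPM with an exact 95% counting interval of 37.2 to 535, which covers counting error only. The log2 difference of 4.90 (standard error 0.40) rests on the prior count added to the 2D values. In the regions, reads were found in every sample. *Serpina3n* had 77.8, 126, 87.7 and 110 CPM in the Internal replicates 1 to 4 and 17.8, 12.0 and 26.2 CPM in the External replicates 1 to 3. The groups did not overlap, with the lowest Internal sample 2.97-fold above the highest External sample, the replicate 3. The log2 difference was 2.45 (standard error 0.25), close in size to that of *Cst3* at a far lower level.

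*Apod* (ENSMUSG00000022548, GRCm38 chromosome 16, 31296192 to 31314808, minus strand) had a larger ratio between 3D and 2D than *Clu* and *Cst3*. It had 4.71, 5.60, 0.586 and 0.312 CPM in the 2D replicates 1 to 4 and 84.2, 119, 115 and 167 CPM in the 3D replicates 1 to 4. The 2D samples fell into a pair with 45 and 41 reads and a pair with 5 and 3 reads, a 17.9-fold range, and the lowest 3D sample was 15.1-fold above the higher pair. The log2 difference was 5.95 (standard error 0.69), and 5.36 without the 2D replicate 4. In the regions *Apod* had 183, 149, 245 and 227 CPM in the Internal replicates 1 to 4 and 53.5, 32.0 and 97.1 CPM in the External replicates 1 to 3. The External replicate 3 lay closest to the internal region, and the lowest Internal sample was 1.53-fold above it, the smallest gap of the group. The log2 difference was 1.84 (standard error 0.25).

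*Ptgds* (ENSMUSG00000015090, GRCm38 chromosome 2, 25466709 to 25470046, minus strand), the second lipocalin, had few reads in most samples. The 2D replicates 1 to 4 had 2, 0, 2 and 0 reads and the 3D replicates 1 to 4 had 24, 4, 11 and 8 reads. The 3D replicate 2, with 4 reads, lay just above the counting limit of 3 reads. Pooled, 47 against 4 reads gave a ratio of 13.0 between the pooled CPM (exact 95% counting interval 4.75 to 49.6), and the log2 difference was 2.17 (standard error 0.60). In the internal region *Ptgds* had 80, 22, 161 and 174 reads in the replicates 1 to 4, or 12.0, 2.54, 36.9 and 14.4 CPM, a 14.5-fold range. The External replicate 1 had 8 reads and the other two External samples had 0, which allows a level of up to 3 reads, or 0.802 CPM in the shallowest. The pooled ratio was 24.8 (exact 95% counting interval 12.5 to 57.7), and the lowest Internal sample was 1.93-fold above the External replicate 1. The log2 difference of 4.47 (standard error 0.82) had the second largest error of the group. It was 5.28 without the External replicate 1 and 5.15 without the Internal replicate 2, and 5.83 and 3.55 with priors of 0.5 and 5 reads.

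*Rnase1* (ENSMUSG00000035896, GRCm38 chromosome 14, 51144998 to 51146785, minus strand) had 71, 16, 38 and 61 reads in the Internal replicates 1 to 4, or 10.6, 1.85, 8.70 and 5.04 CPM. Each of the 3 External samples had 0 reads. With a floor of 3 reads over the External group, 0.208 CPM, the pooled internal level was at least 28.1-fold higher. The fitted log2 difference of 4.26 (standard error 0.89) depends on the prior count and is no bound. Without the Internal replicate 1 it was 3.95 and no longer past the thresholds.

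**Figure D2:**
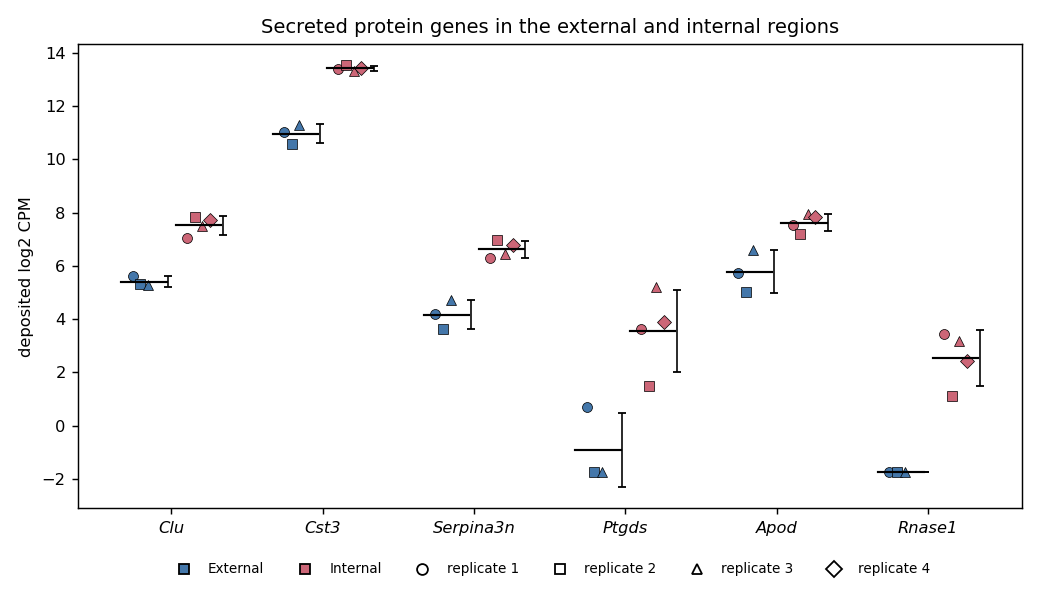
Deposited log2 CPM of the 6 genes in the 3 External (blue) and 4 Internal (red) samples. Symbols give the replicate, horizontal lines the group mean and bars 1 SD. The groups do not overlap for any of the 6 genes, and the 3 External values of *Rnase1* all stand for 0 reads.

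The order of the genes by level was similar in the groups. In 3D the CPM ranges did not overlap between any 2 genes, and fell in the order *Cst3*, *Apod*, *Clu*, *Serpina3n* and *Ptgds*. In 2D *Cst3* was above all others, the ranges of *Clu* and *Apod* overlapped, and *Serpina3n* and *Ptgds* both lay at 0 to 2 reads per sample. In the internal region *Cst3* was again highest, *Apod* and *Clu* overlapped above *Serpina3n*, and *Ptgds* and *Rnase1* overlapped below it. In the external region the ranges of *Apod* and *Clu* overlapped as well, and *Serpina3n* lay below both.

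Within a group, the 6 genes did not move as 1 block. In the Internal replicate 2 *Clu* (227 CPM) and *Serpina3n* (126 CPM) were at their highest, whereas *Apod* (149 CPM), *Ptgds* (2.54 CPM) and *Rnase1* (1.85 CPM) were at their lowest. The Internal replicate 3 had the highest *Apod* (245 CPM) and *Ptgds* (36.9 CPM). In the 3D replicate 2 *Clu* was at its highest (50.7 CPM) while *Cst3* (1970 CPM) and *Ptgds* (0.494 CPM) were at their lowest. Deviations of the log2 values from their group mean had a Pearson correlation of 0.73 between *Serpina3n* and *Apod* (15 samples) and of 0.67 between *Ptgds* and *Rnase1* (7 samples). They were -0.01 between *Clu* and *Cst3* (15 samples) and -0.76 between *Clu* and *Rnase1* (7 samples). The 3 External values of *Rnase1* all stand for 0 reads and deviate by 0. Only the 4 Internal samples thus link *Rnase1* to another gene here. These values are descriptions over libraries that share their scaling, and those of *Ptgds*, *Rnase1* and *Serpina3n* rest in part on samples with few reads, such as the 2D samples with 0 to 2 *Serpina3n* reads.

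**Figure D3:**
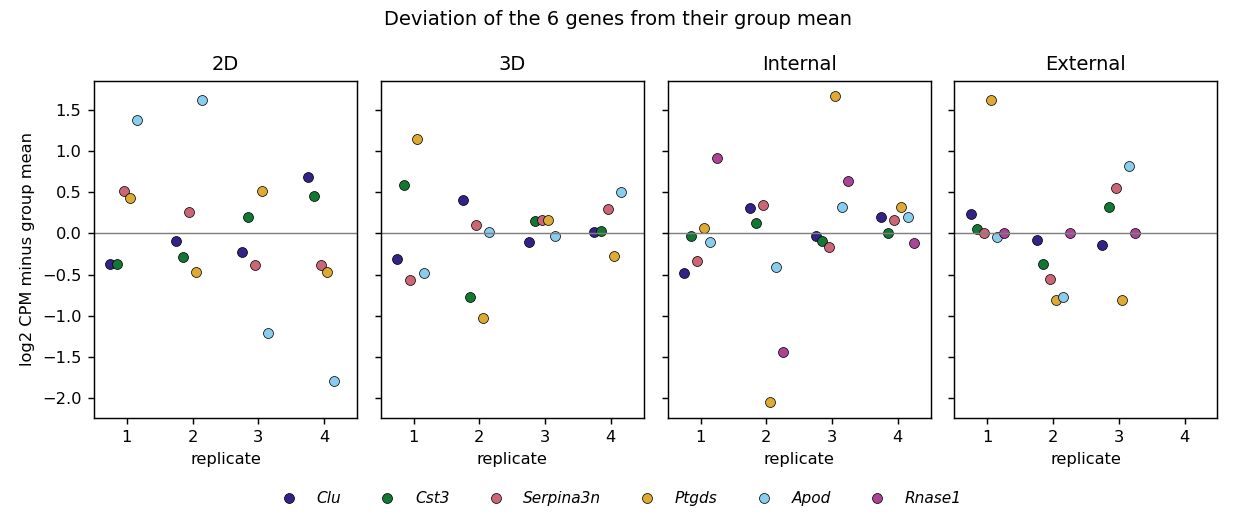
Log2 CPM minus the group mean (y axis) by replicate (x axis) for the 6 genes in the 2D, 3D, Internal and External groups, 1 point per gene and sample. *Apod* splits the 2D samples into replicates 1 and 2 above and 3 and 4 below the mean, and *Ptgds* and *Rnase1* lie below it in the Internal replicate 2 while *Clu* and *Serpina3n* lie above.

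For each gene, the 3 other genes with the most similar profile were sought by the Pearson correlation of log2 CPM centred within each data set, among genes listed in both. For *Rnase1* the genes and the 7 samples of the region data set were used. *Clu* was most like *Plekhg5* (0.97), *Serpina3n* (0.97) and *Pkig* (0.96), and *Serpina3n* most like *Pkig* (0.99), *Plekhg5* (0.97) and *Ifi207* (0.97). The closest profiles to *Cst3* were *Aldh3a1* (0.97), which encodes an aldehyde dehydrogenase, *Apoe* (0.97), which encodes a lipid-carrying apolipoprotein, and *Rasl11b* (0.96). With the group means removed, the correlations of *Cst3* with these 3 genes were 0.64 to 0.82, whereas those of *Clu* with its 3 genes were 0.03 to 0.05. For *Serpina3n* they were 0.80 with *Pkig*, 0.08 with *Plekhg5* and 0.48 with *Ifi207*. *Apod* was most like *Rarres2* (0.98), which encodes the chemoattractant chemerin, *Igsf10* (0.98) and *Ccl8* (0.98), which encodes a chemokine. *Ptgds* was less like its nearest profiles *Parp4* (0.92), *Rbl2* (0.91) and *Etaa1os* (0.91), and *Rnase1* was nearest to *Ephb6* (0.99), *Ormdl3* (0.99) and *Hdac11* (0.99). With the group means removed, the 3 values were 0.80 to 0.89 for *Apod*, 0.65 to 0.68 for *Ptgds* and 0.87 to 0.91 for *Rnase1*. Those of *Rnase1* rest on the 4 Internal samples, since its External values do not vary. The correlations with the group means kept are descriptions in which the difference between the groups has a large part. The genes were picked as the highest on these same samples, so that the values with the means removed are no independent measure either.

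Around these genes, 12 lists of partners, targets and relatives were examined, and the 6 genes themselves were left out of them. In the culture data set 123 list genes were listed, of which 10 rose (8.13%, against 2.92% of all genes) and 2 fell in 3D (1.63%, against 1.51% of all genes). Without the 3D replicate 3 or without the 3D replicate 4, 4 rose, and without the 3D replicate 1, 1 fell. Their median log2 difference was 0.32 against -0.03 over all genes. In the region data set 115 were listed, of which 16 were higher (13.9%, against 3.27% of all genes) and 8 lower in Internal (6.96%, against 4.35% of all genes). Their median was 0.19 against 0.04 over all genes. Without a variance trend 4 were higher in Internal, which were *Apoe*, *Cstad*, *Mitf* and *Rnase4*, and 4 were lower, *Timp1* among them. The calls of *Lrp2*, *Lrp8*, *Ptgs2* and *Rnaseh2a* as lower were lost in that fit. With the trend, 4, 5 and 4 were lower without the External replicate 1, 2 or 3. The adjusted p-values below are from limma over all genes of a data set.

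**Figure D4:**
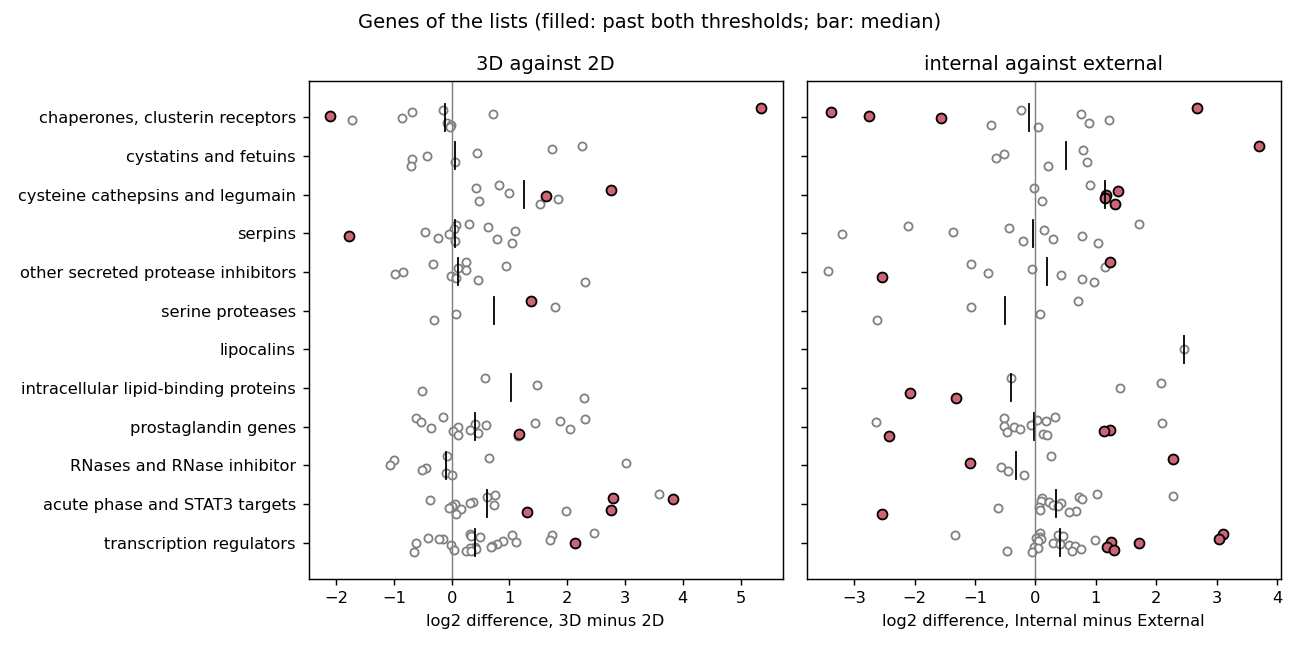
Log2 difference (x axis) of each listed gene of the 12 lists (y axis), 3D minus 2D on the left and Internal minus External on the right. Filled points are past both thresholds and the bars are medians. *Apoe* (5.36) lies farthest right among the chaperone and receptor genes in 3D, and *Lrp2* (-2.10) farthest left.

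Among 10 listed extracellular chaperones and receptors for clusterin, 1 rose and 1 fell in 3D. *Apoe* had 530 to 2141 reads in 3D against 21 to 80 in 2D, a log2 difference of 5.36 (adjusted p = 0.000355). *Lrp2*, which encodes the endocytic receptor megalin, fell by 2.10 on the log2 scale (adjusted p = 0.00132). In the internal region *Apoe* was higher again, by 2.67 (adjusted p = 1.52e-10), and several receptor genes were lower. *Lrp8* had 56 to 119 reads in Internal against 117 to 260 in External and fell by 1.56 (adjusted p = 0.000833), a call lost without the External replicate 1. *Lrp2* fell by 2.76 (adjusted p = 0.0059), a call lost in 4 of the 7 fits without 1 sample. *Sparc*, which encodes a secreted matrix protein with chaperone activity and had the highest level of the list in both data sets, had log2 differences of -0.02 between 3D and 2D and -0.73 between the regions (adjusted p = 0.000208, under the threshold of 1). *Lrp1*, a further clusterin receptor gene named after its values were seen, had differences of 0.71 and 0.75.

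The targets of cystatin C are cysteine cathepsins. Of 8 listed in the cultures, *Ctsl* (1.64, adjusted p = 0.00239) and *Ctsf* (2.75, adjusted p = 0.00716) rose in 3D and none fell, and the median of the list was 1.26. *Ctsf* had 63 to 104 reads in 3D against 5 to 29 in 2D, and its call did not hold in 6 of the 8 fits with 1 sample left out. That of *Ctsl* was lost without the 3D replicate 3 or 4. Of 7 listed in the regions, *Ctsf* (1.36), *Ctsl* (1.16), *Ctso* (1.16) and legumain (*Lgmn*, 1.31) were higher in Internal and none was lower, with a list median of 1.16. The call of *Ctso* was lost in 6 of the 7 fits without 1 sample, that of *Lgmn* in 2 (without the External replicate 2 or 3) and that of *Ctsl* in 1 (without the External replicate 3). Without a variance trend none of the 4 was past the thresholds. *Ctsb*, the other highly expressed cathepsin, had a log2 difference of 0.83 in the cultures and 0.91 in the regions, under the threshold of 1.

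Relatives of the 2 inhibitors were examined next. Under the heading of cystatins and fetuins, name matching returned 7 genes in the cultures, of which 4 (*Cstf1*, *Cstf2*, *Cstf2t* and *Cstf3*) encode subunits of the RNA cleavage stimulation factor and *Cstad* is no cystatin either. None of the 7 passed in limma's test. An unadjusted p under 0.05 was found for 5, which were *Csta2* and the genes *Cstad*, *Cstf1*, *Cstf2* and *Cstf3* that are no cystatins. *Csta2* had 2 to 25 reads in 3D and 0 to 4 in 2D. The stefin gene *Cstb* had a log2 difference of 0.43 in the cultures and 0.79 in the regions (adjusted p = 0.709 and 0.154). In the regions *Cstad* was past the thresholds, with 31 to 54 reads in Internal against 0 to 6 in External, but not without the Internal replicate 1. Of 12 serpins in the cultures, 0 rose and *Serpinb9b* fell by 1.77 (adjusted p = 0.00287, call lost without the 3D replicate 1), and of 10 in the regions 0 passed in either direction, while 6 had an unadjusted p under 0.05. *Serpinf1*, which encodes pigment epithelium-derived factor, had a log2 difference of 0.78 in the cultures. The inhibitors outside these families gave 0 calls among 11 genes in the cultures, where 1 had an unadjusted p under 0.05. In the regions *Cd109* was higher in Internal by 1.24, and *Timp1*, which encodes an inhibitor of metalloproteases, fell by 2.55 (adjusted p = 5.53e-11), with 2354 to 3329 reads in External and at most 1164 in Internal. The list of secreted serine proteases held 4 genes in each data set, among them *Mmp9*, which encodes a metalloprotease and no serine protease. *Htra1* rose in 3D by 1.37 (adjusted p = 0.00146), and 0 of 4 passed in the regions, where 1, *Htra1*, had an unadjusted p under 0.05 and a log2 difference of 0.70.

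No lipocalin other than *Apod* and *Ptgds* was listed in the culture data set. The region data set held *Orm3*, an orosomucoid gene, with 36 to 131 reads in Internal and 0 to 26 in External and an adjusted p of 0.0219. Of the intracellular lipid carriers, 0 of 4 passed in the cultures (3 had an unadjusted p under 0.05), whereas in the regions *Fabp5* fell by 2.08 in Internal (adjusted p = 0.000227, call lost without a variance trend). *Crabp1*, which encodes a retinoic acid carrier, had the highest level of that list, with log2 differences of 0.57 in the cultures and -0.41 in the regions. Of 17 genes of prostaglandin synthesis, transport and reception, *Ptgs1*, which encodes cyclooxygenase 1, the enzyme upstream of *Ptgds*, rose by 1.17 in 3D (adjusted p = 0.00984). This call was lost in 6 of the 8 fits without 1 sample and, among others, with plain library totals. In the internal region the receptor gene *Ptgfr* (1.23) and its regulator *Ptgfrn* (1.13) were higher, and *Ptgs2*, which encodes the inducible cyclooxygenase 2, fell by 2.42, with 3 to 29 reads against 36 to 79. The call of *Ptgs2* was lost in 5 of the 7 fits without 1 sample, and that of *Ptgfrn* without the External replicate 2 or 3.

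Among the ribonuclease genes, *Rnase4*, a relative of *Rnase1*, had 131 to 353 reads in Internal against 20 to 57 in External, a log2 difference of 2.28 (adjusted p = 3.68e-05). In the cultures its difference was 3.01, with 66 to 243 reads in 3D and 2 to 37 in 2D, and its adjusted p was 0.0126. *Rnh1*, which encodes the cytosolic inhibitor of these enzymes, had log2 differences of 0.00 in the cultures and -0.18 in the regions. Name matching also brought in RNase H genes and the tRNA synthetase gene *Ears2*, which are no relatives of *Rnase1*. Of these, *Rnaseh2a* fell in the internal region by 1.09, and its call was lost in 4 of the 7 fits without 1 sample.

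The product of *Serpina3n* is known as an acute phase protein, and 4 of 17 listed genes of the acute phase and STAT3 list rose in 3D. Ceruloplasmin (*Cp*) rose by 3.84 (adjusted p = 0.00183), the transcription factor gene *Cebpd* by 2.79, the oncostatin M receptor gene *Osmr* by 2.76 and *Stat3* by 1.30 (adjusted p = 0.00142). The call of *Osmr* was lost without any one of the 4 3D samples, and those of *Cp* and *Cebpd* without the 3D replicate 3 or 4. The metallothionein genes *Mt1* (-0.05) and *Mt2* (0.15) had the highest levels of this list. In the regions 0 of 16 were higher in Internal, while 8 had an unadjusted p under 0.05 in either direction, and *Timp1* was lower. The log2 differences of *Cp*, *Cebpd*, *Osmr* and *Stat3* between the regions were 0.77, 0.10, 0.08 and 0.55, and *Cp* did not overlap between the regions (adjusted p = 0.00171, under the threshold of 1). Whether the responses in the cultures and the regions differ was not tested, since the data sets were normalized separately.

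Among 25 transcription regulators named in textbooks for these genes, *Mitf*, which encodes a regulator of pigment cell and lysosomal genes, rose in 3D by 2.13 (adjusted p = 0.000513). In the regions 6 of 25 were higher in Internal. The 4 with the largest differences were *Fos* (3.11), *Hsf4* (3.03), which encodes a heat shock factor of lens fibers, *Mitf* (1.72) and *Sox9* (1.29). *Fos* and *Hsf4* had at most 10 and 6 reads in an External sample, and their calls were lost in 4 and 3 of the 7 fits without 1 sample. *Jund*, with the highest level of this list in both data sets, had log2 differences of 0.89 in the cultures (adjusted p = 0.00363, under the threshold of 1) and 0.05 in the regions.

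Markers of other cell types were set beside these results. The listed fibroblast markers, 7 of 8 in the cultures and 6 of 8 in the regions, summed to 579 to 842 CPM in 3D against 134 to 302 CPM in 2D, and to 560 to 651 CPM in Internal against 304 to 696 CPM in External. The listed lens fiber markers, 3 of 11 and 5 of 11, summed to 153 to 251 CPM in 3D against 53.6 to 114 CPM in 2D, and to 415 to 467 CPM in Internal against 149 to 188 CPM in External. The fiber sum held *Prox1*, *Jag1* and *Maf*, and in the regions also *Hsf4* and *Bfsp1*. *Cryba1*, *Crybb2*, *Crygs*, *Bfsp2*, *Mip* and *Lgsn* were not listed in either data set, so that the sum is no full measure of lens fibers. The lens epithelium and lens fiber sums did not overlap between the groups and moved with the 6 genes in both comparisons. The fibroblast sum moved with them in the cultures and overlapped between the regions. The part of these markers in the results was not tested. *Maf* and *Hsf4* stand both among the lens fiber markers and among the transcription regulators. Of 7 macrophage markers 1 was listed in the cultures, with at most 1.64 CPM, and 2 in the regions, with at most 10.01 CPM. The endothelial and retinal pigment epithelium markers were not listed in either data set.

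The reference was also searched for genes that could share reads with the 6. No gene of GENCODE vM21 overlapped any of them. Stretches of 50 bases from the last 300 bases of their protein-coding transcripts matched 0 transcripts of other genes, *Serpina3n* included, which lies in a cluster of close relatives. Of the protein-coding genes next to them, 3 were listed in both data sets. *Scara3*, beside *Clu*, had log2 differences of 1.16 in the cultures (adjusted p = 0.0616) and 1.30 in the regions (adjusted p = 1.11e-06). *Paxx*, beside *Ptgds*, had 0.71 and 0.70, and *Ppp1r2*, beside *Apod*, had -0.41 and 0.69.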

How the data were processed

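The authors prepared QuantSeq 3′ libraries, kept sense reads, mapped them to GRCm38.p6 with STAR 2.7.8a, assigned unique alignments to genes with featureCounts 1.6.0 and kept genes above 0.2 CPM. The values the authors deposited are log2 CPM for each sample, computed after adding a prior of 2 reads on average, in 1 table for the cultures and 1 for the regions. The annotation release is not given in the sources used here. The deposited fold changes, p-values and adjusted p-values of the authors' own comparisons were not used.

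Whole reads were recovered from the spacing of the values for 100.0% of 93416 culture and 79093 region values (within 0.1 of a whole number), and CPM values were computed from them without a prior. Reads that are PCR copies cannot be told apart, so counting intervals (exact, 95%) and the floor of 3 reads cover counting error only. The deposited log2 values were tested within each table with limma 3.58.1 in R 4.3.3, two-sided, with a variance trend and Benjamini-Hochberg adjustment over all genes of the table, and genes were called below an adjusted p of 0.01 when the log2 difference exceeded 1 in either direction. The limma fit was planned for the deposited log2 values, and a count model was not fitted to the recovered reads. The fit was tested on simulated data. Positive differences mean higher in 3D or in Internal.

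The 6 genes, the 12 lists, the markers and the motifs were chosen with earlier results of these data known. Named are the 6 genes, for each list and comparison up to 4 genes past the thresholds and the 2 with the highest mean, the 3 most similar genes, and neighbouring genes. List genes named outside this rule were picked after their values were seen. They are *Lrp1* in both comparisons, *Cebpd*, *Cp*, *Osmr* and *Stat3* in the regions, *Rnase4* and *Csta2* in the cultures, and the genes matched by name only. Some list genes that the rule would name are not reported here. Positions are from GENCODE vM21, which held 11676 of 11677 and 11298 of 11299 gene IDs, and promoters from RefSeq. Samples were grouped by their titles. Alternatives were the variance prior, thresholds, prior counts, scaling, a minimum mean of 1 log2 CPM, a replicate block and leaving out each sample. Other computations used scipy 1.17.1, pandas 2.3.3 and numpy 2.4.6 under Python 3.11.15, and figures were drawn with matplotlib 3.10.9.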

Additional observations from a re-analysis of the deposited data

Results flagged for a closer look

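In 119 groups of 4 samples of the 6 genes and the named list genes, 7 had a sample far from the other 3 by Dixon's criterion, which chance meets in about 1 of 20 groups, and none of these was a group of the 6 genes themselves. *Apoe* was low in the 3D replicate 2, with 6.04 log2 CPM and 530 reads against 1905 to 2141 in the others. *Cstb* was low in the same sample, with 5.10 log2 CPM and 275 reads against 1083 to 1201, and *Cst3* had its lowest 3D value there too. *Ptgs1* was low in the 3D replicate 1, with 7.29 log2 CPM and 1228 reads against 2062 to 2290. In the 2D replicate 1, *Plat* was high with 5.13 log2 CPM and 333 reads against 54 to 61, and *Serpinh1* was low with 8.83 log2 CPM against 9.37 to 9.45. *Mitf* was low in the Internal replicate 3, with 6.36 log2 CPM against 7.22 to 7.29. *Serpinf1* was low in the Internal replicate 2, with 10.07 log2 CPM against 10.17 to 10.18, a small difference between samples that lie close together.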

How the results depend on the processing

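The differences of the 6 genes kept their sign under every alternative that gave a value. The number past the thresholds was 4 in the cultures in each fit that left out 1 sample and 5 or 6 in the regions, where *Rnase1* was lost without the Internal replicate 1. Without a variance trend, *Ptgds* and *Apod* were not past them in the regions, and at an adjusted p of 0.05 *Ptgds* was in the cultures. A minimum mean of 1 log2 CPM removed *Serpina3n* and *Ptgds* from the cultures and *Rnase1* from the regions. The prior count moved genes with few reads. With priors of 0.5 and 5 reads, the log2 difference in the cultures was 6.29 and 3.84 for *Serpina3n*, and that of *Rnase1* in the regions was 6.19 and 3.07. *Ptgds* had 3.30 and 1.43 in the cultures and 5.83 and 3.55 in the regions.

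In the cultures, 16 list genes rose at an adjusted p of 0.05, 4 to 11 without 1 sample, and 4 fell without a fold threshold and 1 or 2 without 1 sample. In the regions, 4 list genes were higher and 4 lower without a variance trend, and 5 were lower with plain library totals and 13 at an adjusted p of 0.05. Without 1 sample, 12 to 21 were higher and 4 to 7 lower. Plain totals moved the median of all genes in the regions from 0.04 to 0.15. With the replicate number as a block, 16 list genes rose in the cultures and 4 were lower in the regions. Same-numbered samples correlated in their deviations at 0.23, 0.50, 0.07 and 0.01 in the cultures and -0.04, -0.07 and -0.06 in the regions. In the cultures 2 of 4 pairs and in the regions 0 of 3 exceeded 0.1. Samples of unequal number were not compared, so that these values cannot decide whether the numbers pair the samples. The main fits were unpaired. The cause of these changes was not tested. Depth limits *Serpina3n* and *Ptgds* in 2D and *Ptgds* and *Rnase1* in External, where most samples had 0 to 2 reads.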
